A study of Homo sapiens with 7 samples.

Results

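The culture GS683.LALN, a subline of the human prostate cancer line PC-3 recovered from a mouse lymph node, was set against the 6 other arrays of the same series to describe the genes that lie outside all of them. A gene was counted as private to the subline when its signal in GS683.LALN, on the scale log2(signal + 46.9), lay at least 1 unit (2-fold) above the highest or below the lowest of the 6 other arrays. Of 13640 genes measured, 14 lay above (0.103%) and 141 lay below (1.03%), so 155 genes make up the set described here. The signals are linear intensities from 1-colour Affymetrix arrays, on which a gene is read by 1 or more probe sets, and a fold on the offset scale understates the change of genes with low signals.

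All cultures descend from PC-3 cells, express luciferase, and were grown untreated in the same serum-supplemented medium. GS683.LALN (1 array) was recovered after TEM4-18 cells had been injected into a vein. JD1203.Lu (1 array) came from lung after the same injection. GS672.Ug (1 array) was recovered from urogenital tissue after injection of PC-3 itself. GS689.Li (1 array) and GS694.LAd (1 array) were recovered from liver and left adrenal after injection of JD549.Ki, a kidney-derived PC-3 subline. TEM4-18 (2 arrays), the line that was injected to make GS683.LALN, consists of PC-3 cells that had crossed a monolayer of lung microvascular endothelium in culture. The labels conflict on the organ of GS683.LALN: the sample's description gives the left axillary lymph node, while the series' design text gives the lung. JD549.Ki appears as the source name of JD1203.Lu and in the description of GS694.LAd, so the sample titles were followed. No array of the parental PC-3 line or of the JD549.Ki line was used here.

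GS683.LALN is represented by 1 array of 1 line, so what belongs to the line and what belongs to that array or RNA preparation cannot be told apart. A test was made with limma, in which the spread comes from the 6 other arrays alone and the lone array is assumed to vary like them. Those 6 arrays hold 5 lines, with TEM4-18 in duplicate and with GS689.Li and GS694.LAd from 1 parent. Whether the duplicates were separate cultures is not stated. The p-values therefore measure the spread between these arrays only. By limma, 1 gene was higher in GS683.LALN (0.00733% of the genes tested) and 8 were lower (0.0587%) at an adjusted p (Benjamini-Hochberg) under 0.05, while 895 genes had an unadjusted p under 0.05.

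Among the private genes of GS683.LALN are a kinase of cell polarity and a chromatin protein. Others encode secreted and surface proteins that bind matrix or growth factors. Whether such groups are more frequent among the private genes than among all genes was not tested. STK26 (also called MST4) encodes a protein kinase that acts with the scaffold protein PDCD10 in cell polarity and migration. MACROH2A2 encodes a macroH2A histone variant found in repressed chromatin, and PKIB encodes an inhibitor peptide of protein kinase A.

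These 3 genes were the ones that limma called lower in the reported setting and in all 18 alternative settings, and their promoters are shown because their signals were 15.1 to 89.4 in GS683.LALN and at least 2308 on each other array. Each line gives the 250 bases before the transcription start from RefSeq on GRCh38.p14, 5′ to 3′, with CG dinucleotides in capitals.
STK26 promoter, chrX:132023339-132023588 (+ strand): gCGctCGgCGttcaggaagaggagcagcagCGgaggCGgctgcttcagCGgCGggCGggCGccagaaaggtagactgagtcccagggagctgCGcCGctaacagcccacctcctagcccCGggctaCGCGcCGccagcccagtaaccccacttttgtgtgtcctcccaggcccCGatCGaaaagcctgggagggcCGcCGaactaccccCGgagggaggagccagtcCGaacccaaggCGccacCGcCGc
MACROH2A2 promoter, chr10:70052596-70052845 (+ strand): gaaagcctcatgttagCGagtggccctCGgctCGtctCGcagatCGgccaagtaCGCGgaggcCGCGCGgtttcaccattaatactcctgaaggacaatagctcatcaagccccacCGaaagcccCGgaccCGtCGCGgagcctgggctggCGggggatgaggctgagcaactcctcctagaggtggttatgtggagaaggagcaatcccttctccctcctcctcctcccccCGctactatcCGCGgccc
PKIB promoter, chr6:122471671-122471920 (+ strand): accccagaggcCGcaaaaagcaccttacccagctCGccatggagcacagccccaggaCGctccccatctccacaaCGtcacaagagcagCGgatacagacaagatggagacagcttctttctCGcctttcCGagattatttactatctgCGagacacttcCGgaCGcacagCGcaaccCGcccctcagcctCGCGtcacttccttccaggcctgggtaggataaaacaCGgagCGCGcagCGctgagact
CG dinucleotides (the motif CG, which reads the same on both strands) numbered 24 in the STK26 promoter, 19 in that of MACROH2A2 and 18 in that of PKIB. The median over the 10996 tested genes with a RefSeq promoter was 20, and 98.5% of those promoters held at least 1. Among the genes below all 6 other arrays, 113 had a RefSeq promoter, with a median of 20 CG dinucleotides. Their ratio of observed to expected CG reached 0.6 in 63.7% of these 113 promoters, against 76.3% of the promoters of all genes tested. The arrays hold no measurement of DNA methylation or of binding at these promoters.

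STK26 had a signal of 15.1 in GS683.LALN, against 9571 and 10376 in the TEM4-18 duplicates, 7404 in JD1203.Lu, 10227 in GS694.LAd, 8962 in GS689.Li and 8500 in GS672.Ug. All 6 other arrays thus read it within a narrow range, and GS683.LALN lay 120-fold below the lowest of them on the offset scale. The log2 difference from the mean of the 6 was -7.21 ± 0.23 (SE, n = 1 and 6, limma adjusted p = 1.04e-06). Its other probe set gave 57.3 in GS683.LALN, against 2320 to 3983 in the 6 others. Of the genes next to STK26 on chromosome X, MBNL3, which encodes a muscleblind splicing regulator, was also private, with 78.2 in GS683.LALN and 360 to 993 elsewhere. Other close neighbours did not follow: RAP2C had 6702 in GS683.LALN against 4654 to 6575, and ENOX2 had 1626 against 1435 to 2162.

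MACROH2A2 had a signal of 66.6 in GS683.LALN, against 2308 and 2569 in TEM4-18, 2314 in JD1203.Lu, 3521 in GS694.LAd, 3282 in GS689.Li and 3623 in GS672.Ug. The rule chose this gene for lying below all 6 other arrays, and the log2 difference from their mean was -4.69 ± 0.31. PKIB had a signal of 89.4 in GS683.LALN, against 3612 and 2883 in TEM4-18, 2657 in JD1203.Lu, 2571 in GS694.LAd, 2362 in GS689.Li and 3459 in GS672.Ug. This was a difference of -4.43 ± 0.27 (limma adjusted p = 0.000268), and the other PKIB probe set gave 4.74 in GS683.LALN against 425 to 785. The tested genes on either side of both genes showed no such gap. Next to MACROH2A2, COL13A1 had 12945 against 18887 to 27971, and AIFM2 had 4320 against 2293 to 6874. Next to PKIB, SERINC1 had 12241 against 10773 to 17672, and SMPDL3A had 956 against 1083 to 2445.

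The other 5 genes called lower have the same shape, with a narrow range in the 6 others. IFI16, a sensor of DNA in nucleus and cytosol that is induced by interferon, had 457 in GS683.LALN, against 3616 and 3343 in TEM4-18, 4797 in JD1203.Lu, 2373 in GS694.LAd, 2742 in GS689.Li and 3342 in GS672.Ug. It fell by 2.73 ± 0.33 on the log2 scale (limma adjusted p = 0.0382), and its other 2 probe sets were also at least 2-fold below all 6. IGFBP3, a secreted protein that binds insulin-like growth factors, had 3130 in GS683.LALN, against 26055 and 24134 in TEM4-18, 20208 in JD1203.Lu, 17499 in GS694.LAd, 13759 in GS689.Li and 26298 in GS672.Ug. Its signal stayed far above the offset in the subline, and it fell by 2.71 ± 0.32 (limma adjusted p = 0.0382). TRIM7, a ubiquitin ligase, had 369 in GS683.LALN and 1751 to 3092 elsewhere. KIAA1549L had 429 in GS683.LALN and 1436 to 1742 elsewhere, and the noncoding RNA gene LINC01116 had 2652 and 6444 to 8226. Each of these 3 had a limma adjusted p of 0.0414. Unlike STK26, MACROH2A2 and PKIB, all 5 lost their call under some alternative settings, with adjusted p up to 0.094 for IFI16, 0.0823 for IGFBP3, 0.29 for TRIM7 and 0.124 for KIAA1549L and LINC01116.

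**Figure D1:**
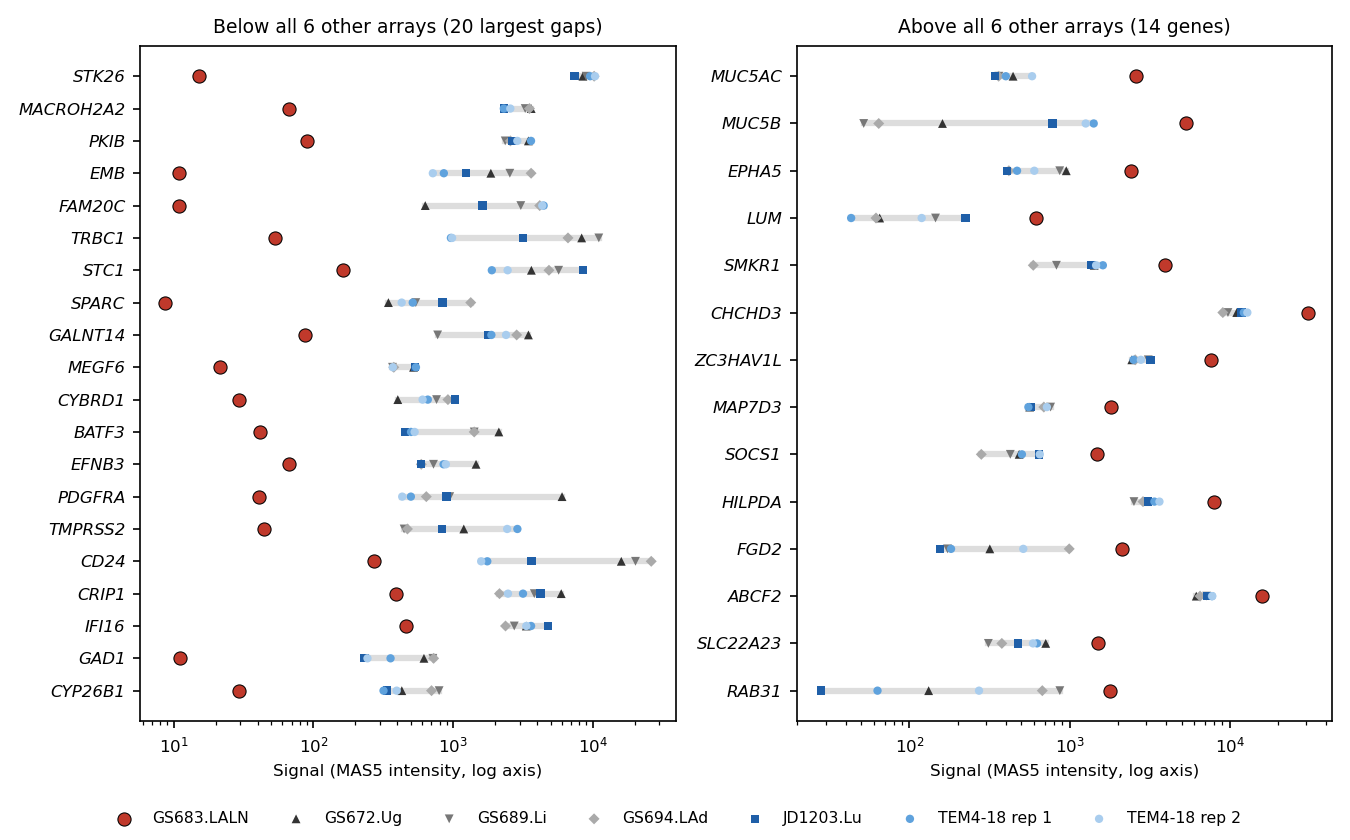
Signal on a log axis (MAS5 intensity) of the 20 genes with the largest gap below and of the 14 genes above all 6 other arrays, 1 point per array, with GS683.LALN as the large red point and a grey bar over the range of the 6 others. GS683.LALN lies clear of the bar in each row because the rule chose such genes. Examples are STK26 at 15.1 against 7404 to 10376 and MUC5AC at 2591 against 343 to 583.

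Of all 141 lower genes, 31 lay at least 4-fold and 7 at least 8-fold below the lowest of the 6, the 7 being STK26, MACROH2A2, PKIB, EMB, FAM20C, TRBC1 and STC1. EMB (embigin), a surface glycoprotein that accompanies monocarboxylate transporters, had 10.96 in GS683.LALN, against 859 and 716 in TEM4-18, 1242 in JD1203.Lu, 3618 in GS694.LAd, 2549 in GS689.Li and 1864 in GS672.Ug. FAM20C, the kinase that phosphorylates secreted proteins in the Golgi, had 10.9 in GS683.LALN, against 4448 and 4350 in TEM4-18, 1623 in JD1203.Lu, 4170 in GS694.LAd, 3054 in GS689.Li and 632 in GS672.Ug. In both genes the 6 others differed widely among themselves, and limma did not call them (adjusted p = 0.0655 and 0.075), though GS683.LALN lay 13.2-fold and 11.7-fold below the lowest array.

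Some lower genes without a limma call encode secreted or matrix proteins, or enzymes that modify them. STC1 (stanniocalcin 1), a secreted glycoprotein, had 162 in GS683.LALN, against 1894 and 2458 in TEM4-18, 8517 in JD1203.Lu, 4856 in GS694.LAd, 5697 in GS689.Li and 3635 in GS672.Ug, and its 2 other probe sets were also 2-fold outside. SPARC, a protein that modulates contact between cells and matrix, had 8.6 in GS683.LALN, against 514 and 429 in TEM4-18, 839 in JD1203.Lu, 1338 in GS694.LAd, 541 in GS689.Li and 344 in GS672.Ug. Their limma adjusted p was 0.0655 and 0.0898. COL1A1, the alpha 1 chain of type I collagen, had 3071 in GS683.LALN and 11763 to 30752 elsewhere. Of its 3 other probe sets past the filter, 2 lay below the range. GALNT14, which starts O-linked glycosylation of secreted proteins, had 87.5 in GS683.LALN and 775 to 3462 elsewhere. ESM1, an endothelial proteoglycan gene, had 73.4 in GS683.LALN and 518 to 4689 elsewhere.

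Surface receptors, their ligands and other proteins of the cell surface formed another part of the lower genes. PDGFRA, a receptor for platelet-derived growth factor, had 41.1 in GS683.LALN, against 499 and 433 in TEM4-18, 899 in JD1203.Lu, 643 in GS694.LAd, 947 in GS689.Li and 6026 in GS672.Ug. Another PDGFRA probe set past the filter lay within the range (162 against 97.9 to 377). EFNB3, a membrane-bound ligand of Eph receptors, had 66.5 in GS683.LALN and 592 to 1460 elsewhere, while its other probe set past the filter did not lie outside the range. PLXNA2, a semaphorin receptor, had 261 in GS683.LALN and 1274 to 3272 elsewhere. Of its 2 other probe sets past the filter, 1 did not lie below the range. CD24, a small surface glycoprotein, had 270 in GS683.LALN, against 1757 and 1589 in TEM4-18, 3645 in JD1203.Lu, 26202 in GS694.LAd, 20215 in GS689.Li and 15997 in GS672.Ug, and 4 of its 5 other probe sets were also 2-fold outside. TMPRSS2, a serine protease of prostate epithelium known as an androgen target, had 44.6 in GS683.LALN, against 2887 and 2439 in TEM4-18, 837 in JD1203.Lu, 471 in GS694.LAd, 446 in GS689.Li and 1193 in GS672.Ug. The 2 other TMPRSS2 probe sets past the filter lay below the range by less than 2-fold (435 against 492 to 1722, and 168 against 318 to 1898). None of these 5 passed limma.

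TRBC1, annotated as the constant region of the T cell receptor beta chain, had 53.5 in GS683.LALN, against 965 and 984 in TEM4-18, 3163 in JD1203.Lu, 6645 in GS694.LAd, 11044 in GS689.Li and 8325 in GS672.Ug. Its 3 probe sets were all 2-fold outside, and its near-identical neighbour TRBC2 makes the gene behind these probe sets uncertain. Enzymes and regulators were also among the lower genes. CYBRD1, a ferric reductase, had 29.4 in GS683.LALN and 402 to 1038 elsewhere (limma adjusted p = 0.051). GAD1, which makes GABA from glutamate, had 11.2 in GS683.LALN and 232 to 726 elsewhere. The 2 other GAD1 probe sets past the filter lay below the range by less than 2-fold. CYP26B1, which degrades retinoic acid, had 29.2 in GS683.LALN and 318 to 795 elsewhere. BATF3, a transcription factor of the AP-1 family, had 41.3 in GS683.LALN and 453 to 2126 elsewhere. CRIP1, a LIM domain protein, had 394 in GS683.LALN and 2149 to 5945 elsewhere, and MEGF6 had 21.3 against 368 to 542.

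Many of the lower genes rest on low signals, which limits how far they can be read. GS683.LALN lay under the offset of 46.9 for 46 of the 141, and in 87 of the 141 the lowest of the 6 other arrays was itself under 500. Of the 59 lower genes with a second probe set past the filter on low signals, 17 had one that was also 2-fold outside and 40 had one outside the range by any amount. The 3 genes just past the limit were ZNF771 (2.01-fold below the lowest array), EIF1B-AS1 (2.00) and WFDC3 (2.00), and the 3 just short of it were DHRS3 (2.00), COXFA4L3 (2.00) and SPECC1 (1.99).

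The 14 genes above all 6 other arrays had smaller gaps, with a median of 1.22 and a largest of 2.07 on the log2 scale, against a median of 1.39 and a largest of 6.91 among the lower genes. MUC5AC and MUC5B, which encode gel-forming mucins of airway and gut and lie next to each other on chromosome 11, had the largest gaps. MUC5AC had 2591 in GS683.LALN, against 400 and 583 in TEM4-18, 343 in JD1203.Lu, 361 in GS694.LAd, 362 in GS689.Li and 444 in GS672.Ug. It was the only gene that limma called higher (2.53 ± 0.34, adjusted p = 0.0495), and the call was lost in 14 of 18 alternative settings, with adjusted p up to 0.503. The probe sets of MUC5AC disagreed: a second one had 1650 in GS683.LALN against 22.9 to 525 elsewhere, another had 100 against 172 to 310, and the last had 391 against 276 to 467.

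MUC5B had 5365 in GS683.LALN, against 1414 and 1261 in TEM4-18, 782 in JD1203.Lu, 64.4 in GS694.LAd, 51.9 in GS689.Li and 161 in GS672.Ug. Its order among the 6 others set the cultures that descend from TEM4-18 above the 3 that do not, and limma did not call the difference from all 6 (3.79 ± 1.44, adjusted p = 0.667). Other mucin genes of the same chromosome 11 cluster did not share the gap: MUC2 had 251 in GS683.LALN against 73.6 to 217, and MUC6 had 115 against 46.8 to 332. The flanking gene TOLLIP had 2412 in GS683.LALN and 2225 to 2679 elsewhere.

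EPHA5, an ephrin receptor, had 2426 in GS683.LALN, against 470 and 602 in TEM4-18, 406 in JD1203.Lu, 418 in GS694.LAd, 868 in GS689.Li and 954 in GS672.Ug. LUM (lumican), a small proteoglycan of collagen matrix, had 614 in GS683.LALN, against 43.3 and 119 in TEM4-18, 224 in JD1203.Lu, 61.9 in GS694.LAd, 146 in GS689.Li and 65.2 in GS672.Ug. A second LUM probe set, under the filter, had 54.6 in GS683.LALN and 12.97 to 168 elsewhere, so the 2 did not show the same order. SOCS1, an inhibitor of cytokine receptor signalling, had 1483 in GS683.LALN and 281 to 651 elsewhere, while its 2 other probe sets past the filter lay within the range (373 against 61.4 to 393, and 256 against 32.6 to 298). RAB31, a GTPase of vesicle traffic, had 1793 in GS683.LALN and 28.1 to 869 elsewhere. FGD2, an exchange factor for CDC42, had 2133 in GS683.LALN and 156 to 995 elsewhere, but its 3 other probe sets past the filter lay within the range (301 against 129 to 431, 646 against 456 to 818, and 344 against 128 to 501). SLC22A23 had 1499 in GS683.LALN and 311 to 710 elsewhere, and its other probe set past the filter also lay within the range (189 against 82.5 to 278). MAP7D3, a microtubule-associated protein, had 1817 in GS683.LALN and 553 to 761 elsewhere. Of the 10 higher genes with a second probe set past the filter, 2 had one that was also 2-fold outside and 7 had one outside the range by any amount.

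The last 5 of the 14 higher genes lie on the long arm of chromosome 7. CHCHD3, a subunit of the complex that shapes mitochondrial cristae, had 30643 in GS683.LALN, against 12239 and 12874 in TEM4-18, 11837 in JD1203.Lu, 9051 in GS694.LAd, 9742 in GS689.Li and 11057 in GS672.Ug. HILPDA, a lipid droplet protein induced by hypoxia, had 7975 in GS683.LALN and 2523 to 3640 elsewhere. ZC3HAV1L had 7639 in GS683.LALN and 2445 to 3198 elsewhere, SMKR1 had 3936 and 593 to 1614, and ABCF2 had 15977 and 6178 to 7780. None passed limma, with adjusted p of 0.056 for CHCHD3, 0.0655 for ZC3HAV1L, 0.0767 for ABCF2, 0.085 for HILPDA and 0.388 for SMKR1. The genes just past the 2-fold limit above were ABCF2 (2.05-fold), SLC22A23 (2.04) and RAB31 (2.01), and the 3 just short of it, PRKAG2 (1.95), METTL2B (1.84) and CUL1 (1.82), lie on chromosome 7 as well. Of the 4 other ABCF2 probe sets past the filter, 2 lay above the range, neither by 2-fold.

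Cut into 340 blocks of about 40 genes in RefSeq gene order, the arrays showed where GS683.LALN departs over whole stretches of chromosome. The deviation of each gene from its median over the 7 arrays was taken, and the block median compared between arrays. GS683.LALN lay at least 0.2 above all 6 others in 8 blocks and below in 7, but other sublines departed over as many: JD1203.Lu in 6 and 9, GS672.Ug in 12 and 9, GS689.Li in 10 and 0, and GS694.LAd in 4 and 2, while the TEM4-18 arrays did so in 0. On chromosome 7, 4 successive blocks from HBP1 to ZNF775 (156 genes) had a median deviation of 0.515 in GS683.LALN, against -0.047 to 0 in the 6 others. GS683.LALN was the highest of the 7 arrays for 100 of the 156 genes (64.1%), against 13.2% of all genes tested. In this stretch 33 genes (21.2%) lay at least 1.5-fold above all 6 other arrays, against 89 genes (0.652%) among all tested. Beyond the private genes these included CUL1, the scaffold of SCF ubiquitin ligases, with 13775 in GS683.LALN and 5711 to 7563 elsewhere, and NUP205, a nuclear pore protein, with 17950 and 7341 to 10301. TRBC1 lies within this stretch and was 1 of 2 private genes there on the lower side, as were 1.03% of all genes tested.

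On chromosome 14, 4 blocks from G2E3 to DCAF5 (164 genes) had a median deviation of 0.36 in GS683.LALN, 0.13 in JD1203.Lu, 0 and 0.036 in TEM4-18, -0.57 in GS694.LAd, -0.61 in GS689.Li and -0.39 in GS672.Ug. Here the 3 cultures that do not descend from TEM4-18 lay lowest, and no gene reached the 2-fold limit. GS683.LALN lay highest for 58.5% of the genes, against 13.2% of all genes tested. DDHD1, a phospholipase, had 14882 in GS683.LALN, against 8279 and 8409 in TEM4-18, 7003 in JD1203.Lu, 2489 in GS694.LAd, 2482 in GS689.Li and 3633 in GS672.Ug. On chromosome 2, 199 genes from LPIN1 to WDPCP had a median deviation of 0.21 in GS683.LALN, against -0.085 to 0.060 in the 6 others, and GS683.LALN was highest for 39.7% of them.

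Stretches with lower levels lay mainly on chromosomes 3 and 1. On chromosome 3, 246 genes up to APEH had a median deviation of -0.24 in GS683.LALN, against -0.0077 to 0.038 in the 6 others, with GS683.LALN lowest for 42.7% of them, against 17.0% of all genes tested. The next stretch, from TWF2-DT to PDZRN3 (82 genes), had -0.27 in GS683.LALN and 0 to 0.041 elsewhere. Of these 82 genes, 3 were private on the lower side, as were 1.03% of all genes tested. IL17RB, a receptor of interleukin 17 cytokines, had 57.0 in GS683.LALN and 202 to 886 elsewhere, PPM1M, a protein phosphatase, had 135 and 442 to 1203, and GXYLT2, a xylosyltransferase, had 156 and 530 to 1620. On chromosome 1, GS683.LALN was lowest for 24.3% of 1376 genes, and 3 stretches of its long arm had median deviations of -0.21, -0.23 and -0.15 in GS683.LALN. The 6 others had -0.0014 to 0.098, -0.0025 to 0.085 and -0.031 to 0.021 there. Between the stretches JD1203.Lu was low as well, as from CRYZL2P to BRINP3-DT with -0.31, against -0.30 in GS683.LALN. The limit of 0.1 between block medians that bounds these stretches was chosen after the values were seen.

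**Figure D2:**
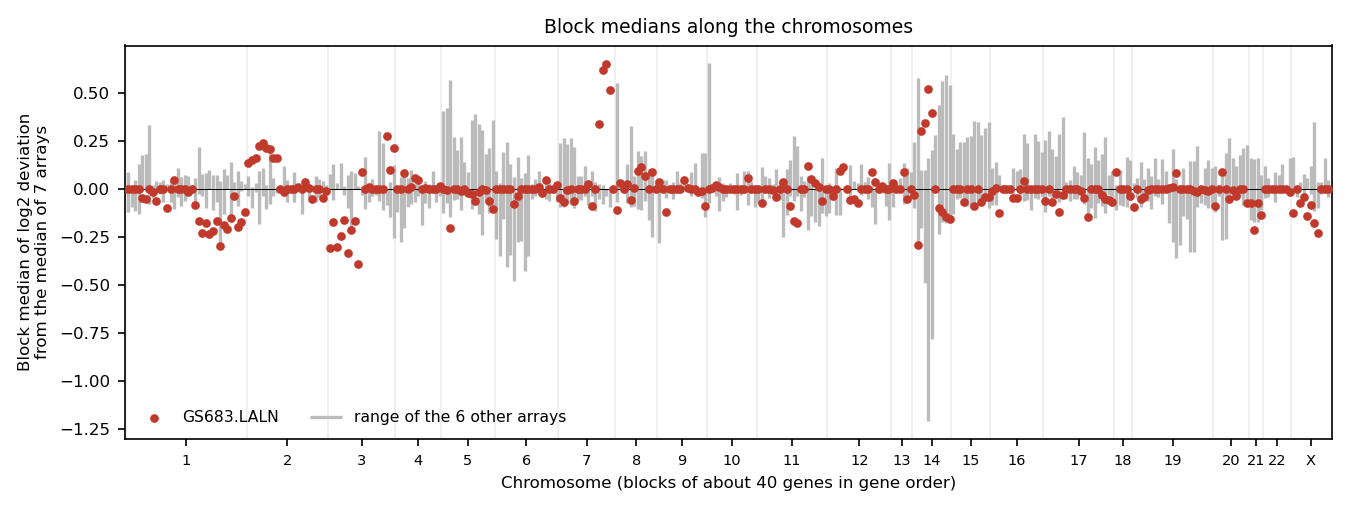
Median log2 deviation from the 7-array median over each of 340 blocks of about 40 genes in chromosome order, with GS683.LALN as red points and the range of the 6 other arrays as grey bars. GS683.LALN stands above the bars at the end of chromosome 7 (0.34 to 0.65 in 4 blocks) and below them over the first part of chromosome 3.

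**Figure D3:**
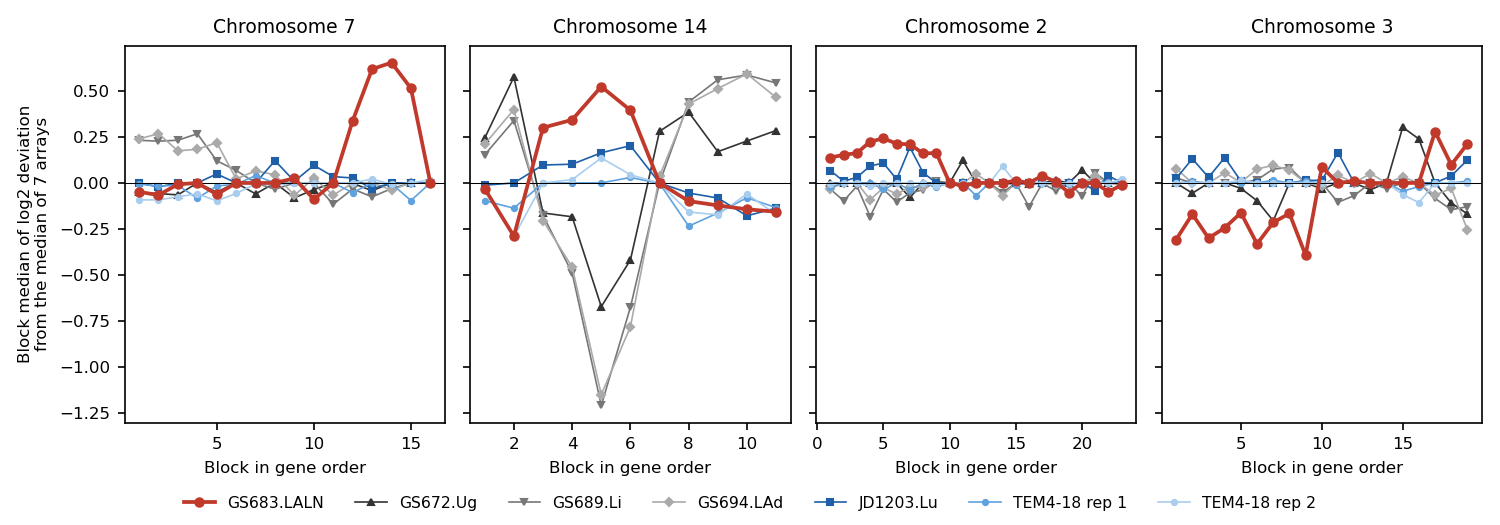
The same block medians for every array on chromosomes 7, 14, 2 and 3, with 1 line per array. On chromosome 14 the lines of GS672.Ug, GS689.Li and GS694.LAd dip while that of GS683.LALN lies above all others, and on chromosome 7 GS683.LALN lies at 0.34 to 0.65 in blocks 12 to 15, with the others close to 0.

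The whole set of lower genes was spread over the genome, with no more than 1.77% of the genes of any chromosome (the X chromosome, 8 of 451), but 3 short runs held 3 private lower genes within 10 successive genes. RASSF5, IL24 and FCMR form a run on chromosome 1. Genes that lie between RASSF5 and IL24 were not private, such as DYRK3 with 1773 in GS683.LALN against 1734 to 2554. IL24, a cytokine of the interleukin 10 family, had 23.4 in GS683.LALN and 162 to 396 elsewhere, and FCMR, the Fc receptor for IgM, had 73.6 and 367 to 1677. PLXNA2, SYT14 and SERTAD4 form a second run on the same chromosome, where SYT14 had 5.37 in GS683.LALN and 133 to 1344 elsewhere. Here too, genes between PLXNA2 and SYT14 were not private, such as UTP25 with 2399 in GS683.LALN against 2300 to 2735. On chromosome 2 the run is SP5, GAD1 and CYBRD1, and 4 genes that lie between GAD1 and CYBRD1 had no gap, such as GORASP2 with 11467 in GS683.LALN against 11099 to 12751.

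Gene lists put the private genes beside the other genes of their pathways. Each list is described by its counts and by the median log2 difference of GS683.LALN from the mean of the 6, which was -0.019 over all genes tested. Beside it stands the range of medians obtained when each of the 6 other arrays is set against the mean of its own 6 others. In 29 lists no gene other than IFI16, IGFBP3 and MUC5AC passed limma.

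Of the 7 measured genes of the keratin list, intermediate filaments of epithelium, none was private. GS683.LALN was lowest for 5 of them (71.4%, against 17.0% of all genes). The median difference was -0.83, against -0.085 to 0.16 for the 6 others. KRT8 had 2775 in GS683.LALN, against 5884 and 5658 in TEM4-18, 5503 in JD1203.Lu, 5553 in GS694.LAd, 7665 in GS689.Li and 5769 in GS672.Ug. This was just short of the limit, with a difference of -1.09 ± 0.22 (limma adjusted p = 0.174). KRT7 had 3281 in GS683.LALN and 5146 to 12584 elsewhere, and KRT19 had 17187 and 26311 to 40098. A keratin outside the list, KRT75, was private, with 565 in GS683.LALN and 1517 to 15813 elsewhere. KRT18, the partner of KRT8 in simple epithelium, differed less, with 29052 in GS683.LALN and 33080 to 38315 elsewhere.

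The list of collagens and other matrix genes, which does not hold COL1A1, SPARC or LUM, was lowest in GS683.LALN for 14 of 29 genes (48.3%, against 17.0% of all genes), with a median difference of -0.48, against -0.048 to 0.38 for the 6 others. NID1 (nidogen 1), a linker of basement membrane, was the private member of the list, with 552 in GS683.LALN, 1601 and 1181 in TEM4-18, 1250 in JD1203.Lu, 2542 in GS694.LAd, 2652 in GS689.Li and 1974 in GS672.Ug. The collagen IV chain COL4A1 had 955 in GS683.LALN and 1515 to 3027 elsewhere, and thrombospondin 1 (THBS1) had 195 and 417 to 1045. Its relative NID2 lay above the others, with 1440 in GS683.LALN and 541 to 1099 elsewhere. Integrins and adhesion ligands were lowest for 9 of 20 (45.0%, against 17.0% of all genes). The surface glycoprotein MCAM was private (1081 in GS683.LALN and 2751 to 5528 elsewhere), but its other probe set past the filter did not lie below the range. The collagen receptor subunit ITGA2 came next (3259 and 5443 to 10010).

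The list of receptor tyrosine kinases and ligands, which also holds binding proteins of insulin-like growth factors, had 4 private genes of 32 measured, namely TGFA, PDGFRA, IGFBP3 and IGFBP6, all below the others, as were 1.03% of all genes. Receptors and ligands of this class outside the list were private in both directions, with EPHA5 above and KDR, EFNB3, EFNB1 and EPHA10 below. EFNB1, an ephrin ligand, had 162 in GS683.LALN and 391.6 to 1113 elsewhere, and the Eph receptor EPHA10 had 28.4 and 217 to 536. The other EPHA10 probe set past the filter did not lie below the range. The median difference of the list was -0.37, against -0.22 to 0.26 for the 6 others. TGFA, a ligand of the EGF receptor, had 16.9 in GS683.LALN, against 254 and 210 in TEM4-18, 112 in JD1203.Lu, 2577 in GS694.LAd, 2984 in GS689.Li and 2035 in GS672.Ug. Of the 2 other TGFA probe sets past the filter, 1 lay below the range, by less than 2-fold. IGFBP6, a binding protein of insulin-like growth factor 2, had 2791 in GS683.LALN and 6507 to 13326 elsewhere. The receptor EGFR had 8162 in GS683.LALN against 7796 to 17982, within the range, and the receptor MET had 43171 against 19078 to 41464, just above it.

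In TGF-beta and BMP signalling 9 of 26 genes were lowest in GS683.LALN (34.6%, against 17.0% of all genes). The median difference was -0.34, against -0.10 to 0.56 for the 6 others. INHBA, which encodes a subunit of activin A, was private, with 625 in GS683.LALN, against 3426 and 2643 in TEM4-18, 5805 in JD1203.Lu, 12115 in GS694.LAd, 12036 in GS689.Li and 2342 in GS672.Ug. The activin antagonist FST had 6846 in GS683.LALN and 7262 to 44061 elsewhere. Single private members stood in other lists. The interleukin list held IL24 and IL1R1, the interleukin 1 receptor, which had 80.5 in GS683.LALN and 243 to 681 elsewhere. KDR, the VEGF receptor 2, had 318 and 763 to 6380. ALDH1A3, which makes retinoic acid, had 915 and 2272 to 30312, and ADAM19, a membrane metalloprotease, had 1073 and 2419 to 3446. The other ADAM19 probe set past the filter did not lie below the range.

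Further lists also had medians outside the range of the 6 others, namely lymphangiogenic factors and receptors (-0.26, against 0.0085 to 0.17), WNT signalling (-0.24, against -0.10 to 0.18) and mesenchymal and EMT regulators (-0.24, against -0.095 to 0.14). Interferon-stimulated genes other than IFI16 were not private, and their median difference of -0.28 lay within the -0.38 to 0.40 of the 6 others. The 50 genes of the cell cycle and replication had a median of 0.051 and no private gene, and the 30 ribosomal protein genes had -0.034, which turned to 0.053 with median centring. Chemokines (-0.63) and cancer-testis antigens (-1.09) lay within the wide ranges that the 6 others spanned. Hypoxia and glycolysis genes had a median of 0.14, against -0.079 to 0.044 for the 6 others.

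**Figure D4:**
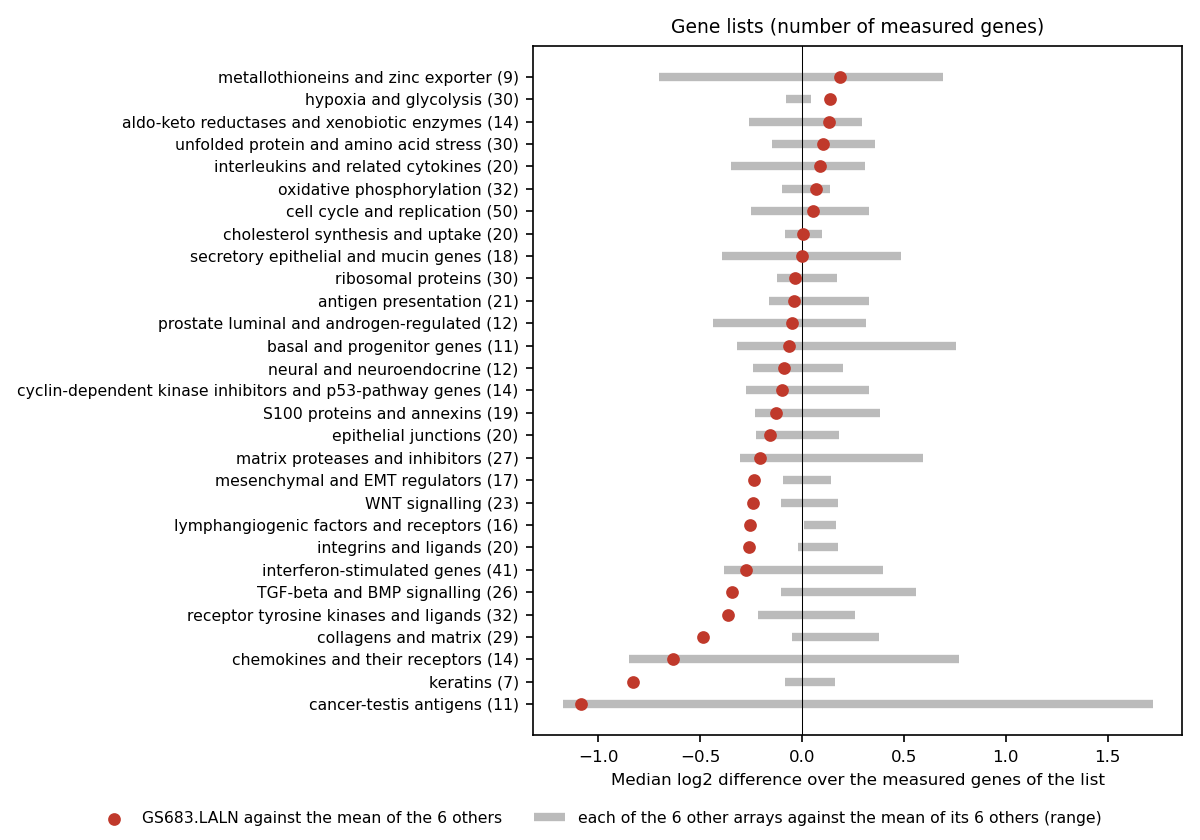
Median log2 difference over the measured genes of 29 lists, with GS683.LALN against the mean of the 6 others as red points and the range for the 6 other arrays, each against the mean of its own 6 others, as grey bars. Keratins (-0.83) and collagens and matrix (-0.48) lie left of their bars, and cell cycle and replication (0.051) lies within its bar.

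The identity of the culture was checked on key genes. VIM, the intermediate filament of mesenchymal cells, had 61696 in GS683.LALN and 67846 to 81724 elsewhere, and the epithelial adhesion gene EPCAM had 1335 and 1147 to 4627. CDH2 (N-cadherin) had 10173 in GS683.LALN and 2934 to 8823 elsewhere, ZEB1, a repressor of epithelial genes, had 8172 and 5898 to 7723, and CDH1 (E-cadherin) stayed under the filter in all 7 arrays, at 90.5 in GS683.LALN and 6.92 to 109 elsewhere. None of VIM, EPCAM, CDH2 and ZEB1 passed limma. The prostate gene KLK3 had 1249 in GS683.LALN and 730 to 1347 elsewhere. HOXB13, another prostate gene, had 7757 in GS683.LALN and 5881 to 12988 elsewhere.

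Markers of other cell types were also read on all arrays. The host was a mouse and the probe sets are annotated to human genes. These signals therefore cannot show whether host cells were carried over. Of 8 lymph node stroma and lymphatic markers, 3 passed the filter, and their summed signal was 317 in GS683.LALN against 387 to 1180 in the 6 others. The defining genes CCL21 (17.6 in GS683.LALN, 13.2 to 47.5 elsewhere) and CXCL13 (21.6 and 5.20 to 18.4) were under the offset or close to it on all arrays. Of 12 lymphocyte markers 5 passed, with a sum of 1889 in GS683.LALN and 1266 to 3151 elsewhere, while PTPRC, the pan-leukocyte gene, had 121 and 27.6 to 229. Of 8 lung epithelium markers 3 passed, with a sum of 1628 in GS683.LALN and 1393 to 2350 elsewhere. The fibroblast markers held 1 private gene above (LUM) and 2 below (COL1A1 and PDGFRA), and their sum was 4651 in GS683.LALN and 13929 to 32752 elsewhere. Most of that sum was COL1A1, with 3071 in GS683.LALN and 11763 to 30752 elsewhere. The myeloid markers summed to 527 in GS683.LALN and 266 to 858 elsewhere, and the blood endothelium markers to 2217 and 2168 to 8916. The part of host cells in the results was not tested. The prostate luminal markers summed to 9224 in GS683.LALN and 8000 to 14992 elsewhere, and the simple epithelium markers to 53896 and 72780 to 95360.

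Because GS683.LALN was grown from TEM4-18, the 2 TEM4-18 arrays are the nearest comparison. The root mean square log2 distance of GS683.LALN was 0.580 and 0.559 to the TEM4-18 duplicates, 0.669 to JD1203.Lu, 0.734 to GS672.Ug, 0.784 to GS689.Li and 0.797 to GS694.LAd, while the duplicates lay 0.415 apart. GS683.LALN lay at least 2-fold above both TEM4-18 arrays in 169 genes (1.24%) and below both in 332 (2.43%), which include all 155 private genes by construction. JD1203.Lu, grown from the same line, lay above both in 380 and below both in 406. For 62 of the 141 lower genes (44.0%) both TEM4-18 arrays were already below all 3 cultures that do not descend from TEM4-18, against 23.8% of all genes, as for CD24, TRBC1 and TGFA. For 10 of the 141 (7.09%) both TEM4-18 arrays were above those 3, as for TMPRSS2, against 17.6% of all genes.

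Several large differences from TEM4-18 were shared with another subline and so were not private. DSP (desmoplakin), which anchors keratins at desmosomes, had 53.7 in GS683.LALN and 55.0 in JD1203.Lu, against 2439 and 2582 in TEM4-18 and 1646 to 7309 in the 3 others. TFAP2A, a transcription factor of epithelial cells, had 156 in GS683.LALN and 133 in JD1203.Lu, against 2419 and 2836 in TEM4-18. On the higher side, PAMR1 had 1815 in GS683.LALN and 1589 in JD1203.Lu, against 134 and 179 in TEM4-18, and AADAC, an esterase, had 1111 and 2410 against 30.5 and 46.4. Of the 12 largest differences above TEM4-18, 2 were private, and of the 12 largest below, 8 were.

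The number of private genes has to be read against what the same rule gives for each other array. JD1203.Lu lay 2-fold below all its 6 others in 189 genes and above in 38, GS672.Ug in 50 and 57, GS689.Li in 37 and 15, and GS694.LAd in 47 and 13. TEM4-18 replicates 1 and 2, each of which has a duplicate among its 6 others, still lay below in 80 and 57 genes and above in 1 and 1. When the lowest of the 6 others had to reach 500, GS683.LALN had 54 lower genes, JD1203.Lu 68, GS672.Ug 9, GS689.Li 6, GS694.LAd 4 and the TEM4-18 arrays 2 and 1. At 4-fold the lower counts were 31 in GS683.LALN, 19 in JD1203.Lu, 3 in GS672.Ug, 3 in GS689.Li, 2 in GS694.LAd, and 1 and 1 in TEM4-18. GS683.LALN thus had fewer private genes than JD1203.Lu at 2-fold on both sides, and more at 4-fold on the lower side. These counts carry no test, since each rests on 1 array.

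**Figure D5:**
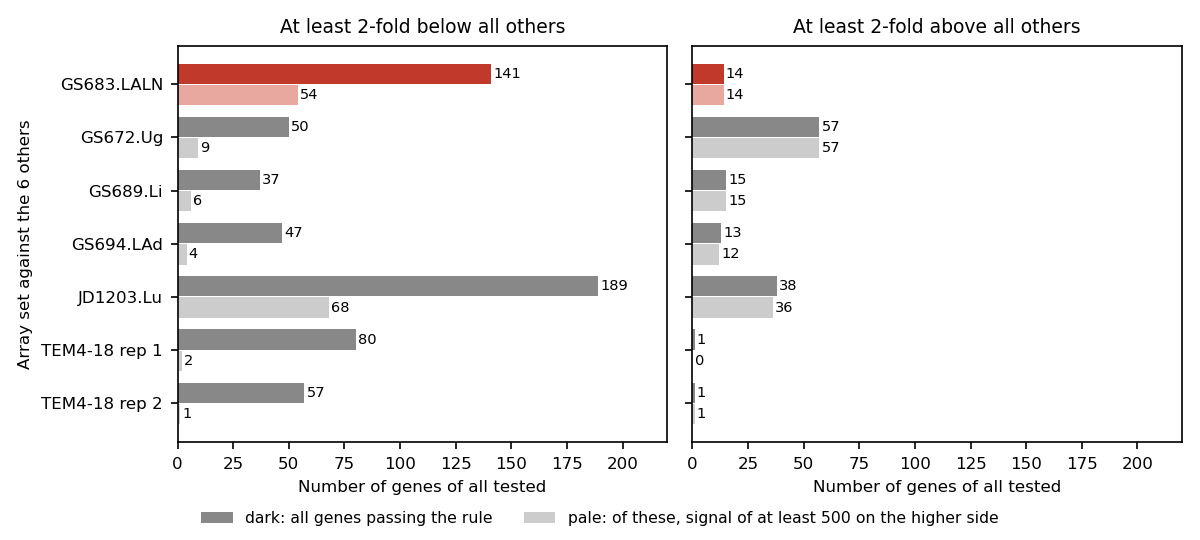
Number of genes that lie at least 2-fold below (left) or above (right) all 6 other arrays when each array in turn is set against the rest, in dark bars, and the part of them with a signal of at least 500 on the higher side, in pale bars. GS683.LALN has 141 lower genes, of which 54 reach 500 in all others, and the TEM4-18 arrays have 80 and 57, of which 2 and 1 do.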

How the data were processed

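RNA of the cultures was hybridised to 7 Affymetrix arrays of the 1-colour type. The deposited values are linear intensities, 1 for each of 54675 probe sets, which the authors made with MAS5, per the submitters' processing notes (version: not given in the sources used here). Trimmed to the central 96% of probe sets, the array means were alike (1499.8 for GS683.LALN), so the authors' scaling was kept. Array medians ranged from 239 to 297, with 252 for GS683.LALN.

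The analysis used log2(intensity + 46.9), the offset being the 20th percentile of all deposited values. Of the probe sets, 41097 have 1 gene symbol, 1801 several and 11777 none. Those with 1 symbol and a mean over the 7 arrays of at least 161 (the 40th percentile) entered, with the probe set of highest mean standing for its gene, giving 13640 genes, of which 13621 matched RefSeq. The test was limma 3.58.1 in R 4.3.3 (lmFit and eBayes with an intensity trend, two-sided, Benjamini-Hochberg adjustment over all genes), with Python 3.11.15 for the rest. On simulated data for 13640 genes, limma called 7, 37, 44 and 49 of 50 genes changed by 1, 2, 3 and 4 log2 units, with 2 false calls. The simulated arrays were drawn independently, and the lone array was given the spread of the others. The real arrays hold a duplicate pair and 2 sublines of 1 parent. These counts therefore do not give the error rate of the real comparison. The number of arrays limits the precision.

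The subline, the members and the gene lists were chosen with earlier results of these data known. Named genes are the 20 with the largest gap in each direction, private members of 29 lists, up to 4 genes per list with the largest difference, those at the limit, those in runs of 3 within 10 genes, and fixed key genes. Neighbouring genes, genes within stretches of chromosomes, genes shared with another subline, ESM1, HOXB13, KRT75, EFNB1, EPHA10 and further members of lists were named after their values were seen. Alternatives changed the offset, the filter, the scaling, the probe set per gene, the fold, the units and the arrays included. A limit of 500 on the signal was added after the data were seen.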

Additional observations from a re-analysis of the deposited data

Results flagged for a closer look

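In 4 of the 45 named genes examined, 1 of the 6 other arrays stood apart from its neighbours by Dixon's criterion for 6 values, which chance exceeds in about 1 in 20 groups. PDGFRA had 41.1 in GS683.LALN, and GS672.Ug was the highest of the others at 6026.4, the next being 947. LINC01116 had 2652 in GS683.LALN, and GS694.LAd was the lowest of the others at 6444.2, the next being 7777. CDH2 had 10173 in GS683.LALN, and GS694.LAd was the lowest of the others at 2934.3, the next being 6589. KRT8 had 2775 in GS683.LALN, and GS689.Li was the highest of the others at 7664.6, the next being 5884.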

How the results depend on the processing

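No paired analysis was possible because GS683.LALN has 1 array and shares no series of replicate numbers with another group. The 141 genes below all 6 other arrays became 215 without the offset, 47 when the offset was raised to the median value, 81 and 92 with the mean or the maximum filtered at the 60th percentile, 335 at 1.5-fold, 31 at 4-fold and 54 with a signal of at least 500 on each other array. Leaving out 1 other array gave 151 to 192. The 14 genes above became 9 with the raised offset, 36 with no filter, 6 with the mean of the probe sets, 89 at 1.5-fold and 1 at 4-fold. Leaving out 1 other array gave 14 to 26, the 26 without JD1203.Lu. The 1 gene that limma called higher became 3 without the offset and 2 without probe sets ending in _x_at. It became 0 with no filter, with either filter at the 60th percentile, with median centring, with quantile normalization, with the mean of the probe sets, with the TEM4-18 duplicates averaged, and with GS689.Li and GS694.LAd averaged, where 744 to 1080 genes had an unadjusted p under 0.05. Leaving out 1 array gave 0 to 0. The 8 lower limma calls became 28 without the offset, 5 with the raised offset, 4 with median centring, 3 with the TEM4-18 duplicates averaged and 15 without probe sets ending in _x_at. Leaving out 1 array gave 3 to 9, with 3 without either TEM4-18 array and 5 without GS672.Ug or without GS694.LAd. The 169 genes above both TEM4-18 arrays became 71 with the raised offset, 438 with no filter, and 93 and 107 with the filters at the 60th percentile, and 169 to 512 with 1 array left out (426 without TEM4-18 replicate 1, 512 without replicate 2). The 332 below both became 113, 530, 173 and 194 in those 4 settings, and 332 to 495 with 1 array left out. The causes were not tested. Median centring moved the median difference of all genes to 0.068, against -0.019 as deposited, and 127 of the 141 lower and 13 of the 14 higher genes were shared with that setting. No called gene reversed its direction, but medians of lists near 0 changed sign in some settings. The medians of the myeloid and the lymph node stroma markers could not be had with the filters at the 60th percentile, which left no member. Low signals limit the lower genes, as the counts with a signal limit show.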
